A study of Mus musculus with 9 samples.

Results

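The genes described here are the molecular chaperones and co-chaperones of the cytosol and mitochondria that belong to or surround the heat shock response, measured in mouse lung after adenoviral delivery of IL-4 or of its splice variant IL-4d2. The list held 42 genes, 21 of them heat-inducible, 19 constitutive and 2 of neither class. It was chosen by its subject after Hspa1a and Hspa1b were known to be higher with AdV-IL4d2 than with the control virus. Differences of single genes between AdV-IL4d2 and control are therefore given as a description, without p-values, and counts past the threshold in that comparison carry no weight of their own. The array carried 100 probe sets with a single gene symbol for 39 of the 42 genes, among 45101 probe sets in all. Of these, 83 probe sets for 38 genes passed the filter on dim signals and were tested, among 23824 probe sets and 11984 genes. All 38 tested genes lay above the median of the array on all 9 arrays, so no gene entered through the group where it was high. Hsf1, Hsp90ab1 and Ptges3 had no probe set with a single symbol and were not analysed here. Hsf2, a second heat shock transcription factor, had 2 probe sets with signals of 71.1 to 156, which never passed the filter and were not tested.

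The samples were whole lungs of 9 female C57BL/6 mice aged 14 weeks, 3 per group, with 1 array per mouse. Each mouse had received a replication-deficient adenovirus into the trachea 14 days earlier. AdV-NULL, labelled as encoding NULL, is the control virus, AdV-IL4 carried mouse IL-4, and AdV-IL4d2 carried mouse IL-4d2. All 3 groups thus had a viral infection, and no uninfected lung was among the arrays, so an effect of the virus itself cannot be seen. The comparisons ask which chaperone genes differed with each cytokine form and whether the forms differed from each other.

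Heat shock proteins bind unfolded or misfolded proteins and help them fold, and many are made in larger amounts when proteins are damaged. In resting cells the transcription factor HSF1 is held inactive with chaperones. After stress it forms trimers, enters the nucleus and binds heat shock elements in promoters, which are arrays of a short unit in alternating orientation. The Hsp70 machine works with Hsp40 proteins that deliver clients and with nucleotide exchange factors such as Hsp110 and Bag proteins. Clients then pass to Hsp90 and its co-chaperones, to the ring-shaped TRiC complex or, in mitochondria, to Hsp60 and Hsp10.

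Lung epithelial markers were abundant, with a mean log2 signal of 14 to 14.42 over the 9 arrays. Array medians ran from 156 to 171. Muscle transcripts varied widely, with a mean log2 signal of the skeletal muscle markers of 7.79, 9.65 and 12.73 on the control arrays, 6.53 to 7.66 with AdV-IL4 and 7.24 to 8.02 with AdV-IL4d2. The deposited values have the same trimmed mean on every array, so each difference is relative to the typical gene. Scaling to the bacterial hybridisation controls instead moved the median of all probe sets by −0.43 on the log2 scale for AdV-IL4 against control, by 0.08 for AdV-IL4d2 against control and by −0.52 for AdV-IL4 against AdV-IL4d2. Scaling to the poly-A controls moved it by −0.77, 0.27 and −1.04. Differences of single genes shift by about these amounts. With AdV-IL4 against control, the sign turned for 14 and 17 of the 38 genes under these scalings, of which 2 and 4 had passed the test and are named beside their values. The 13 others were Cct2, Cct5, Dnaja4, Dnajb2, Dnajb4, Dnajb5, Fkbp4, Hspa2, Hspa4, Hspa4l, Hspb8 and Tcp1 under both, and Fkbp5 under the poly-A scaling. With AdV-IL4d2 against control, Bag1, Cryab and Hspb8 turned under the poly-A scaling. Between the forms, 20 and 22 of the 38 turned.

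Promoter sequences of 5 genes are shown because they include the genes with the largest differences and the longest matches to the heat shock element. They come from RefSeq, build GRCm38.p6, and run from 200 bases before to 30 bases after the transcript start, 5′ to 3′ on the gene's strand. Capitals mark every match to a pair of units, GAANNTTC or TTCNNGAA, where N is any base. Hspa1a lies at chr17:34972127-34972356 and Hspa1b at chr17:34959209-34959438, both on the minus strand, Hsph1 at chr5:149636286-149636515 on the minus strand, Chordc1 at chr9:18292067-18292296 on the plus strand, and Hspe1 at chr1:55087948-55088177 on the plus strand.
Hspa1a: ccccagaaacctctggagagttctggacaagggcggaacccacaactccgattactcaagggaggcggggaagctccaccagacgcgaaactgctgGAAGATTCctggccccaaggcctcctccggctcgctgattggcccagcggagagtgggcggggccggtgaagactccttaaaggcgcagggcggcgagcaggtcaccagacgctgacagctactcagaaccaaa
Hspa1b: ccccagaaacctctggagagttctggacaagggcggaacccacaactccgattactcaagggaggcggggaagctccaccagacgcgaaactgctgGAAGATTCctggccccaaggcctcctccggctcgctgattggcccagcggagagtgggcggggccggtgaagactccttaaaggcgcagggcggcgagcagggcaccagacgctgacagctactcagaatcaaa
Hsph1: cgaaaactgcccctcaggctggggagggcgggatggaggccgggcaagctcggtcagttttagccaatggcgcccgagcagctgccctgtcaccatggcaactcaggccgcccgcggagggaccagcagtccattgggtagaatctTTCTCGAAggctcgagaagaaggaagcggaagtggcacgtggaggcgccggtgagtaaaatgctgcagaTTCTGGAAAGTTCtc
Chordc1: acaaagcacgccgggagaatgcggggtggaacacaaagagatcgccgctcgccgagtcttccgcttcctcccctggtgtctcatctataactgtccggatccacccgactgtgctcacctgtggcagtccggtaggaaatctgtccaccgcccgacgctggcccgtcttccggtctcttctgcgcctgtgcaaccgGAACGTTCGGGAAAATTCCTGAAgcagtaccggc
Hspe1: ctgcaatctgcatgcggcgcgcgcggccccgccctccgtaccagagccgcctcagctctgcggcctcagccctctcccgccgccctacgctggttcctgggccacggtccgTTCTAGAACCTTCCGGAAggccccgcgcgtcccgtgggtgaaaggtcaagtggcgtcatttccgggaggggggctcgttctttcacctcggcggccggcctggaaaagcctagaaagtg

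The first match lay 104 bases before the start in Hspa1a and in Hspa1b, 54 bases before it in Hsph1, 89 in Hspe1 and 4 in Chordc1. The 300-base windows of Hspa1a and Hspa1b, from 250 bases before to 50 after the start, differed at 4 bases and were 98.7% identical. Those of Hspe1 and Hspd1, a gene pair transcribed away from each other, shared 285 bases. A window of this kind was found for 35 of the 42 genes. A run of 3 units, GAANNTTCNNGAA or its reverse complement TTCNNGAANNTTC, occurred in 5 of the 35 (14.3%), namely Chordc1, Hspd1, Hspe1, Hsph1 and Dnajb6, against 179 of 27025 genes with a window (0.662%). The shorter pair of units reads the same on both strands and is contained in every run of 3. It occurred in 17 of the 35 (48.6%), against 4587 of the 27025 (17%). By class, it stood in 13 of 19 heat-inducible genes (68.4%) and 4 of 14 constitutive genes (28.6%). Of the genes called higher with AdV-IL4, described below, it stood in 9 of 14 with a window (64.3%). Among the other tested genes with a window it stood in 8 of 19 (42.1%). The pair was absent from the windows of Dnajb1, Stip1, Ahsa1, Ahsa2 and Cct3. No window was found for Hspa8, Hsp90aa1 and St13, which were also called higher. These counts are of genes, not of separate sequences. Hspd1 and Hspe1 share the same run, and the near-identical windows of Hspa1a and Hspa1b the same pair. These are matches of letters within a window, not measured binding, and heat shock elements further from the start or with altered letters were not searched.

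With AdV-IL4, 17 of the 38 tested genes rose against the control virus and 1 fell, by limma with an adjusted p below 0.05. Among all 11984 genes, 6.34% rose and 6.63% fell. The list and its classes were drawn up with earlier results of these arrays known, and this comparison shares its 3 control arrays with the AdV-IL4d2 comparison. The counts and medians by class are therefore a description, and the p-values do not account for that choice. The heat-inducible class held 14 of the 17, out of 21 tested, and none of its tested genes was called lower. The constitutive class held 3 that rose and 1 that fell, out of 15. The median log2 difference was 0.84 over the heat-inducible genes, 0.06 over the constitutive genes and −0.02 over all genes. For 19 of the 38, every AdV-IL4 array lay above every control array, as for 14.9% of all genes. Under the hybridisation control scaling the calls were 10 higher and 6 lower, and under the poly-A scaling 8 higher and 18 lower. Of all 23824 probe sets, 7451 and 18123 were called under these scalings, in either direction. Relative to the shifted median of all probe sets, the heat-inducible median was then 0.82 and 0.81, and the constitutive median 0.04 and 0.03.

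With AdV-IL4d2, 16 of the 38 were past the same threshold, all higher than control, against 0.859% of all genes higher and 0.401% lower. This comparison was the one known when the list was drawn up, and nothing is read from that count. The heat-inducible class held 14 of the 16, and the constitutive class held Hspa8 and Cct5. The median log2 difference was 0.81 for the heat-inducible genes, 0.16 for the constitutive genes and 0 for all genes. No overlap with the control arrays was seen for 24 of the 38 on the higher side, against 11.4% of all genes. Both comparisons use the same 3 control arrays, so their likeness is not independent.

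**Figure D1:**
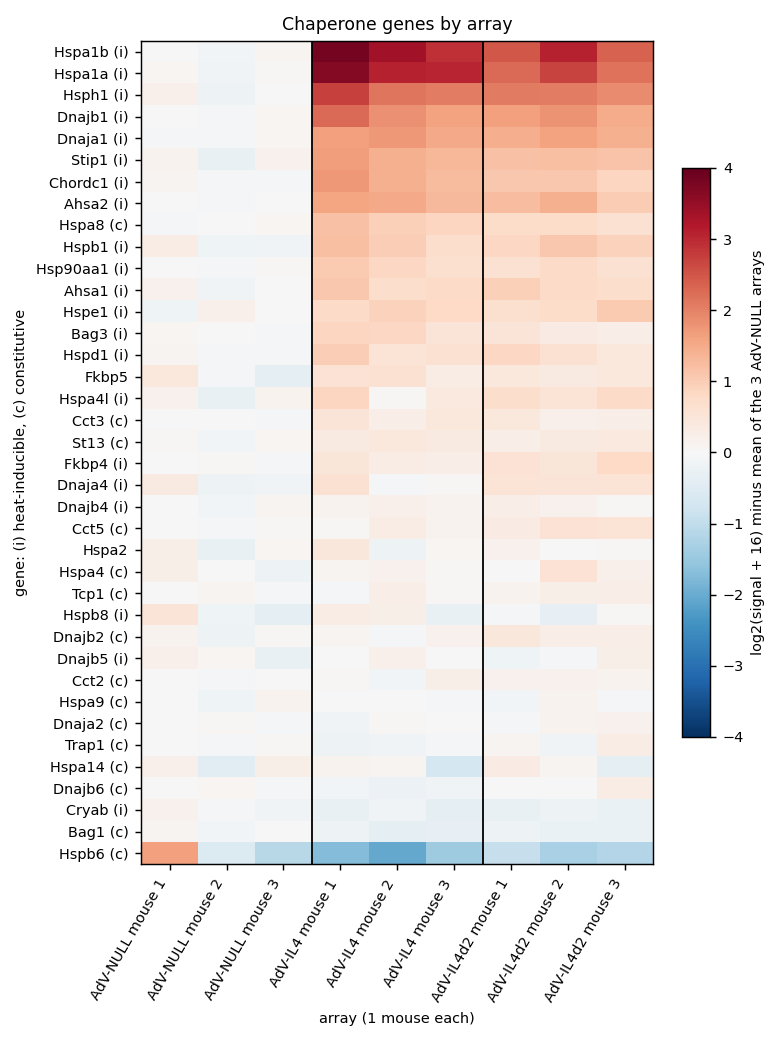
Each row is 1 of the 38 tested chaperone genes and each column 1 array, with colour giving log2(signal + 16) minus the mean of the 3 AdV-NULL arrays. Genes are sorted by the AdV-IL4 difference, and the heat-inducible genes (i) fill most of the top rows in all 6 cytokine arrays, while Hspb6 at the bottom is high on AdV-NULL mouse 1.

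The stress-inducible Hsp70 genes differed most. Hspa1b (1452318_a_at) gave signals of 2159, 2015 and 2320 on the control arrays, 30936, 22376 and 16594 with AdV-IL4, and 12282, 18569 and 11090 with AdV-IL4d2. Hspa1a (1452388_at) gave 532, 456 and 521 with the control virus, 6643, 4333 and 4234 with AdV-IL4, and 2479, 3372 and 2341 with AdV-IL4d2. For both genes, the 6 cytokine arrays lay far above the 3 control arrays, and AdV-IL4 mouse 1 was the highest array. Hspa1b rose 10.4-fold with AdV-IL4 (log2 difference 3.37 ± 0.21 SE, limma adjusted p = 3.47e-06) and was 6.27-fold higher with AdV-IL4d2 (2.65 ± 0.21). Hspa1a rose 9.6-fold with AdV-IL4 (3.26 ± 0.17, limma adjusted p = 2.16e-06) and was 5.23-fold higher with AdV-IL4d2 (2.39 ± 0.17). Sorted by the log2 difference among 11984 genes, Hspa1b stood at rank 9 with either form, and Hspa1a at rank 12 with AdV-IL4 and rank 11 with AdV-IL4d2. The other probe sets of Hspa1b showed differences of 3.67 and 3.75 with AdV-IL4, and of 2.89 and 2.92 with AdV-IL4d2. These transcripts are near-identical, so a probe set named for one may also detect the other, and their values are not separate evidence.

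Hspa8 encodes Hsc70, the abundant constitutive Hsp70 that serves housekeeping folding and clathrin uncoating. Its brightest probe set (1455789_x_at) gave 18243, 19187 and 20094 with the control virus, 43639, 36720 and 34532 with AdV-IL4, and 31726, 31903 and 29103 with AdV-IL4d2. The groups did not overlap, with AdV-IL4 the highest. It rose 1.99-fold with AdV-IL4 (0.99 ± 0.10, limma adjusted p = 1.16e-04) and was 1.61-fold higher with AdV-IL4d2 (0.69 ± 0.10). The AdV-IL4 call was lost under the poly-A scaling (0.19, adjusted p = 0.373). Its other probe sets rose by more with AdV-IL4, with log2 differences of 1.46, 1.45 and 1.81. Neither of the remaining Hsp70 genes passed the test with AdV-IL4. Hspa2, best known from the testis, differed by 0.12, and Hspa14, a ribosome-associated Hsp70, by −0.15.

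Among the Hsp110 nucleotide exchange factors, only Hsph1 rose with AdV-IL4 by its brightest probe set. Hsph1 (1425993_a_at) gave 1654, 1253 and 1460 with the control virus, 9744, 6454 and 6025 with AdV-IL4, and 6155, 6019 and 5416 with AdV-IL4d2. All 6 cytokine arrays stood far above the 3 control arrays. The increase was 4.96-fold with AdV-IL4 (2.31 ± 0.16, limma adjusted p = 8.50e-06), and the level was 4.01-fold higher with AdV-IL4d2 (2.0 ± 0.16). Hspa4l, the second heat-inducible gene of the group, differed by 0.43 ± 0.18 with AdV-IL4 (adjusted p = 0.145). Its 5 probe sets ranged from 0.28 to 0.90, and 1 of them passed the test (1418253_a_at, adjusted p = 0.0115). Hspa4, its constitutive relative, gave 3716, 3117 and 2772 with the control virus, 3397, 3584 and 3318 with AdV-IL4, and 3227, 4729 and 3663 with AdV-IL4d2. These groups overlapped.

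Of 8 Hsp40 genes, 2 rose with AdV-IL4, Dnaja1 and Dnajb1, the heat-inducible partners that deliver clients to Hsp70 and start its ATPase. Dnaja1 (1416288_at) gave 3284, 3321 and 3598 with the control virus, 10656, 11287 and 9799 with AdV-IL4, and 9375, 10313 and 9039 with AdV-IL4d2. Dnajb1 (1416755_at) gave 1249, 1233 and 1344, then 6245, 4525 and 3931, then 4000, 4463 and 3592 in the same order. For both genes the control arrays stood apart and the AdV-IL4 and AdV-IL4d2 arrays overlapped. Dnaja1 rose 3.10-fold with AdV-IL4 (1.63 ± 0.09, limma adjusted p = 2.16e-06) and was 2.81-fold higher with AdV-IL4d2 (1.49 ± 0.09). Dnajb1 rose 3.74-fold (1.90 ± 0.14, limma adjusted p = 1.90e-05) and was 3.11-fold higher with AdV-IL4d2 (1.64 ± 0.14). The other 6 Hsp40 genes did not pass the test with AdV-IL4 and differed by −0.16 to 0.19 on their brightest probe sets. Their other tested probe sets ranged from −0.51 (Dnajb5) to 0.57 (Dnaja4), and none passed the test. The 6 genes include Dnaja4, Dnajb4 and Dnajb5, which were classed as heat-inducible. Dnaja4 was 1.45-fold higher with AdV-IL4d2 (0.54 ± 0.18), with all 3 arrays at 1597 to 1662 against 966 to 1438 in control.

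**Figure D2:**
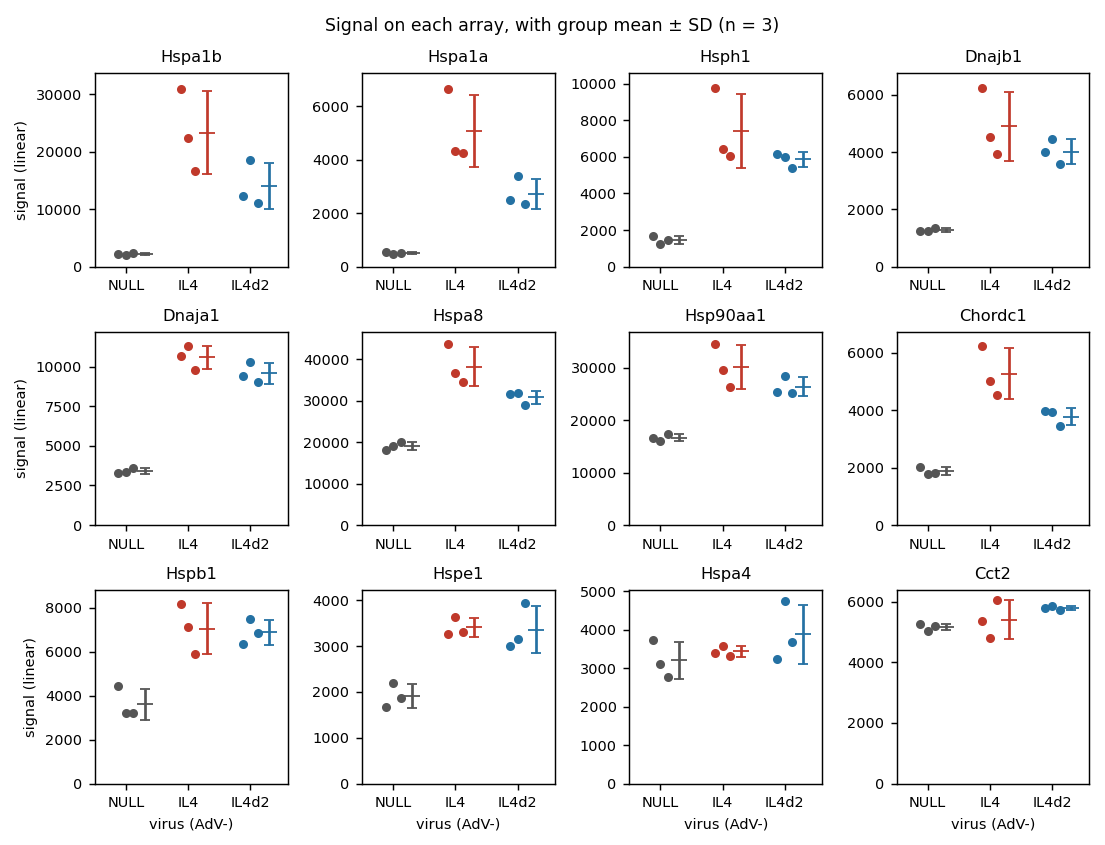
Signals on a linear axis for 12 genes, with 1 point per array and the group mean ± SD (n = 3) beside the points. The 10 genes that were called with AdV-IL4 show control arrays below all cytokine arrays, while Hspa4 and Cct2 overlap between control and AdV-IL4.

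The single cytosolic Hsp90 gene measured, Hsp90aa1, is the stress-inducible isoform. Its brightest probe set (1438902_a_at) gave 16539, 16127 and 17393 with the control virus, 34543, 29494 and 26254 with AdV-IL4, and 25452, 28464 and 25288 with AdV-IL4d2. The control arrays lay below all others. Hsp90aa1 rose 1.79-fold with AdV-IL4 (0.84 ± 0.10, limma adjusted p = 4.95e-04) and was 1.58-fold higher with AdV-IL4d2 (0.66 ± 0.10). The AdV-IL4 call was lost under the hybridisation control scaling (0.39, adjusted p = 0.0668) and the poly-A scaling (0.04, adjusted p = 0.845). Its other tested probe sets showed 1.14 and 1.28 with AdV-IL4, and 1.05 and 1.21 with AdV-IL4d2.

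Of the 7 genes grouped as Hsp90 co-chaperones, 5 rose with AdV-IL4, among them St13, which is a cofactor of Hsp70. Stip1, also called Hop, bridges Hsp70 and Hsp90 and gave 576, 414 and 581 with the control virus, 1702, 1410 and 1331 with AdV-IL4, and 1193, 1202 and 1149 with AdV-IL4d2. It rose 2.79-fold with AdV-IL4 (1.48 ± 0.14, limma adjusted p = 7.16e-05) and was 2.24-fold higher with AdV-IL4d2. Chordc1, an Hsp90-binding protein with CHORD domains, gave 2025, 1781 and 1807, then 6240, 5025 and 4529, then 3963, 3923 and 3437. For both genes all 3 groups were separate, in the order control, AdV-IL4d2, AdV-IL4. Chordc1 rose 2.78-fold with AdV-IL4 (1.47 ± 0.12, limma adjusted p = 2.14e-05) and was 2.01-fold higher with AdV-IL4d2.

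Ahsa1 and Ahsa2 encode activators of the Hsp90 ATPase. Ahsa2 gave 591, 572 and 595 with the control virus, 1799, 1704 and 1475 with AdV-IL4, and 1400, 1585 and 1209 with AdV-IL4d2. Ahsa1 gave 2301, 1856 and 2018, then 4313, 3326 and 3466, then 3976, 3516 and 3369. In both, the cytokine groups overlapped each other and not the control. Ahsa2 rose 2.78-fold with AdV-IL4 (1.47 ± 0.11, limma adjusted p = 1.98e-05) and Ahsa1 1.79-fold (0.84 ± 0.12, limma adjusted p = 1.17e-03). With AdV-IL4d2 they were 2.34-fold and 1.76-fold higher. The AdV-IL4 call of Ahsa1 was lost under both control scalings (0.39, adjusted p = 0.127, and 0.04, adjusted p = 0.863).

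St13, or Hip, a constitutive cofactor that stabilises the ADP form of Hsp70, changed less on its brightest probe set. It gave 4013, 3580 and 4093 with the control virus, 4973, 5200 and 5043 with AdV-IL4, and 4663, 5009 and 5103 with AdV-IL4d2. It rose 1.30-fold with AdV-IL4 (0.38 ± 0.08, limma adjusted p = 0.0116), a sign that turned under both control scalings (−0.06 and −0.41). The call was lost without AdV-NULL mouse 1 and AdV-IL4 mouse 2 (adjusted p = 0.068). A dimmer St13 probe set (1460193_at) rose by more with AdV-IL4 (0.79, limma adjusted p = 0.00173) and differed by 0.74 with AdV-IL4d2. The immunophilin Fkbp4, or Fkbp52, of steroid receptor complexes gave 932, 937 and 875 with the control virus, 1290, 1132 and 1091 with AdV-IL4, and 1374, 1296 and 1594 with AdV-IL4d2. Both cytokine groups lay above control, and AdV-IL4d2 above AdV-IL4. Its difference was 0.35 ± 0.10 with AdV-IL4 (adjusted p = 0.0536) and 0.62 ± 0.10 with AdV-IL4d2. A dimmer Fkbp4 probe set (1416363_at) passed the test with AdV-IL4 (0.86, limma adjusted p = 0.0143). Fkbp5, which glucocorticoids induce, differed by 0.49 with AdV-IL4 (adjusted p = 0.0833) and 0.41 with AdV-IL4d2.

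The 2 Bag proteins, exchange factors of Hsp70, moved in opposite directions with AdV-IL4. The heat-inducible Bag3, which links chaperones to autophagy, gave 1222, 1140 and 1105 with the control virus, 2111, 2055 and 1663 with AdV-IL4, and 1673, 1452 and 1381 with AdV-IL4d2. The constitutive Bag1, which couples Hsp70 to the proteasome, gave 5361, 4665 and 5032, then 4345, 3836 and 3950, then 4359, 4209 and 4123. Every cytokine array was above control for Bag3 and below control for Bag1. Bag3 rose 1.66-fold with AdV-IL4 (0.74 ± 0.11, limma adjusted p = 1.93e-03), a call lost under the hybridisation control scaling (0.29, adjusted p = 0.262) and a sign that turned under the poly-A scaling (−0.06), and was 1.29-fold higher with AdV-IL4d2. Bag1 fell by 0.31 ± 0.08 on the log2 scale with AdV-IL4 (limma adjusted p = 0.0344) and differed by −0.24 with AdV-IL4d2. The Bag1 call was lost without AdV-NULL mouse 1 (adjusted p = 0.128), without AdV-NULL mouse 3 (0.0867), without AdV-IL4 mouse 2 or 3 (0.101 and 0.0882), and without AdV-IL4d2 mouse 2 or 3 (0.0513 and 0.0524).

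**Figure D3:**
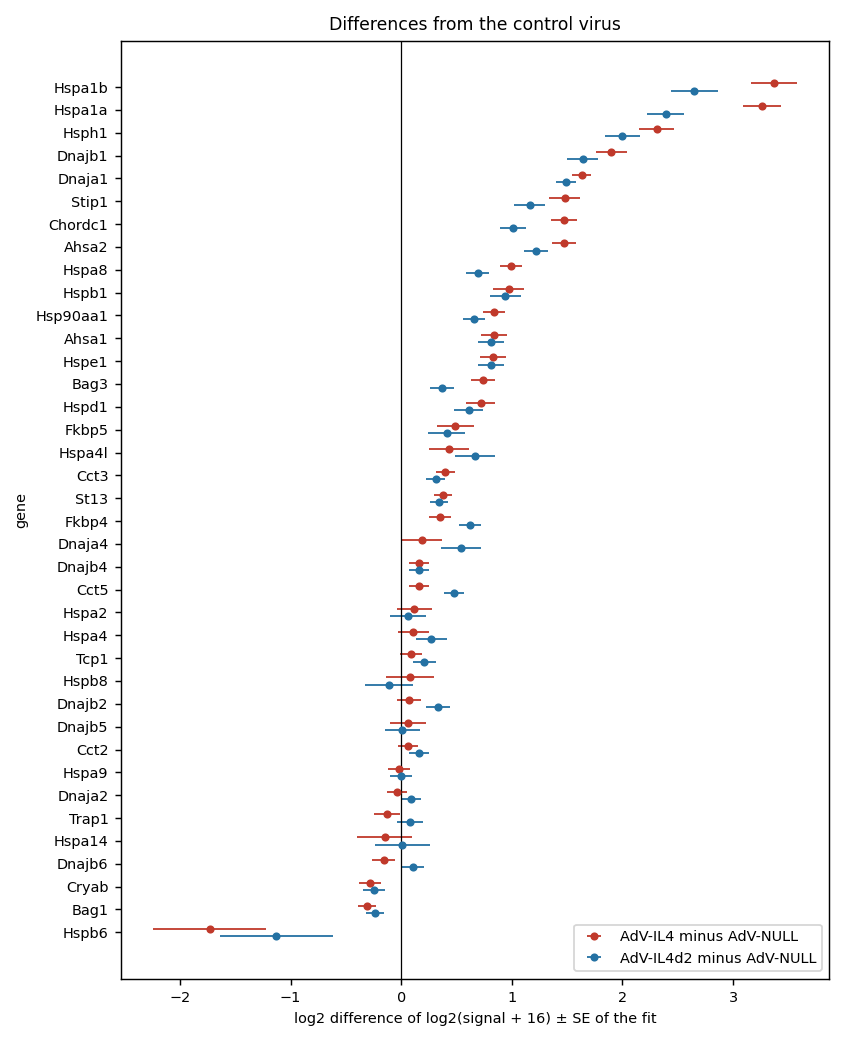
Log2 differences from the control virus (horizontal axis, mean ± SE of the fit) for each of the 38 tested genes, AdV-IL4 in red and AdV-IL4d2 in blue. The largest values are those of Hspa1b, 3.37 and 2.65. Both series share the 3 control arrays, and scaling arrays to hybridisation or poly-A controls turned the sign of 14 or 17 of the AdV-IL4 differences, those of the called genes St13, Cct3, Bag3 and Hspd1 among them, and under the poly-A scaling of the AdV-IL4d2 differences of Bag1, Cryab and Hspb8.

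The TRiC ring folds actin and tubulin. Of its 4 subunits on the list, Cct3 rose with AdV-IL4. It gave 3989, 4074 and 3901 with the control virus, 5735, 4770 and 5338 with AdV-IL4, and 5393, 4621 and 4808 with AdV-IL4d2, without overlap between control and either cytokine. The increase was 1.32-fold with AdV-IL4 (0.40 ± 0.09, limma adjusted p = 0.0163), turned sign under both control scalings (−0.05 and −0.40), and was not called without AdV-NULL mouse 1 or mouse 3 (adjusted p = 0.0508 and 0.0536). Cct5 gave 3758, 3599 and 3863 with the control virus, 3839, 4584 and 4133 with AdV-IL4, and 4708, 5554 and 5462 with AdV-IL4d2. Its AdV-IL4d2 arrays were above all others, 1.40-fold over control (0.48 ± 0.09), while the AdV-IL4 difference was 0.16 ± 0.09 (adjusted p = 0.311). Cct2, the brightest of the 4, gave 5256, 5048 and 5203, then 5352, 4793 and 6075, then 5787, 5851 and 5722. Its control and AdV-IL4 arrays overlapped, and the AdV-IL4d2 arrays lay above control. Tcp1 differed by 0.09 and 0.21.

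In mitochondria, the heat-inducible chaperonin pair rose and the constitutive members did not pass the test with AdV-IL4. Hspd1, or Hsp60, gave 2847, 2537 and 2536 with the control virus, 5228, 3841 and 4065 with AdV-IL4, and 4651, 4011 and 3503 with AdV-IL4d2. Hspe1, or Hsp10, its lid, gave 1673, 2194 and 1872, then 3259, 3643 and 3314, then 2991, 3144 and 3942. Both genes had every cytokine array above every control array. Hspd1 rose 1.64-fold with AdV-IL4 (0.72 ± 0.13, limma adjusted p = 4.91e-03), a sign that turned under the poly-A scaling (−0.08), and Hspe1 1.78-fold (0.83 ± 0.12, limma adjusted p = 1.57e-03). The Hspd1 call was lost under the hybridisation control scaling (0.27, adjusted p = 0.28), and the Hspe1 call under both control scalings (0.39, adjusted p = 0.137, and 0.04, adjusted p = 0.875). With AdV-IL4d2 they were 1.52-fold and 1.75-fold higher. The promoter windows of this pair, which overlap as given above, hold the same run of units. Hspa9, or mortalin, the mitochondrial Hsp70, differed by −0.02 and 0.00, and Trap1, the mitochondrial Hsp90, by −0.13 and 0.08.

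The small heat shock proteins hold unfolded proteins in soluble form and did not move together. Hspb1, or Hsp25, gave 4433, 3193 and 3211 with the control virus, 8173, 7104 and 5883 with AdV-IL4, and 6346, 7478 and 6836 with AdV-IL4d2. It rose 1.95-fold with AdV-IL4 (0.97 ± 0.14, limma adjusted p = 1.69e-03) and was 1.92-fold higher with AdV-IL4d2. The AdV-IL4 call was lost under the poly-A scaling (0.17, adjusted p = 0.483). Cryab, or alpha-B-crystallin, the brightest of the 4, gave 9331, 8006 and 7390, then 6655, 7445 and 6223, then 6716, 7105 and 6886. Its AdV-IL4 arrays overlapped control by a narrow margin, and the difference was −0.28 ± 0.10 (adjusted p = 0.0954). A second Cryab probe set (1416455_a_at) passed the test with AdV-IL4, with a difference of −0.65 (limma adjusted p = 0.0145).

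Hspb6, or Hsp20, which is abundant in muscle, gave 2238, 472 and 318 with the control virus, 199, 159 and 254 with AdV-IL4, and 364, 276 and 300 with AdV-IL4d2. AdV-NULL mouse 1 stood far above every other array. The difference with AdV-IL4 was −1.73 ± 0.51 (adjusted p = 0.0506), and −0.90 without AdV-NULL mouse 1, where it passed the test (limma adjusted p = 0.0473). Without AdV-IL4 mouse 2 as well it was −0.75 and did not pass (adjusted p = 0.0974). It also passed with pseudocount 1 (limma adjusted p = 0.0491), the filter on all 9 arrays (0.0382), the replicate block (0.0346) and without AdV-NULL mouse 3 (0.0168). Under both control scalings, where the median of all probe sets also fell, it passed at −2.14 and −2.46. The call thus depended on the setting. The skeletal muscle actin Acta1 gave 21385, 2573 and 448 with the control virus, 350, 150 and 238 with AdV-IL4, and 230, 203 and 276 with AdV-IL4d2. Of the skeletal muscle markers 4 of 6 fell with AdV-IL4, and of the heart muscle markers 7 of 12. The heart markers had a mean log2 signal of 9.92 to 11.29 with the control virus, 7.15 to 9.14 with AdV-IL4 and 8.83 to 10.42 with AdV-IL4d2, and none of these markers was at 0. The part of muscle RNA in the Hspb6 and Cryab values was not tested, and in whole lung RNA fewer cells of a type and less RNA per cell cannot be told apart. Hspb8, a partner of Bag3, differed by 0.08 with AdV-IL4 and −0.11 with AdV-IL4d2. A dimmer Hspb8 probe set (1417014_at) differed by −0.56 with AdV-IL4 (limma adjusted p = 0.105), with every AdV-IL4 array below every control array. Probe set 1456434_x_at differed by −0.07.

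**Figure D4:**
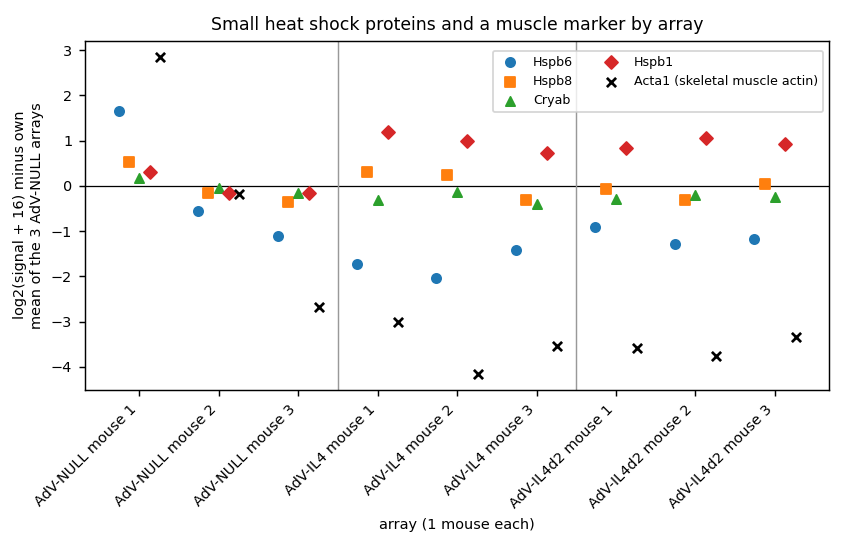
Each symbol gives log2(signal + 16) of 1 gene on 1 array minus that gene's own mean over the 3 AdV-NULL arrays, for the 4 small heat shock proteins and for Acta1. Hspb1 is above 0 on all 6 cytokine arrays, while Hspb6 and Acta1 share their highest value on AdV-NULL mouse 1.

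The size of the increase also varied between the AdV-IL4 mice. Averaged over the 17 genes that rose with AdV-IL4, the log2 signal above the control mean was 1.6, 1.35 and 1.22 in mouse 1, 2 and 3. Since these genes were picked by their AdV-IL4 values, the average is compared only within that group. AdV-IL4 mouse 1 was the highest array of its group for 14 of the 17, and the remaining 3 were highest in mouse 2. The ratio of 3′ to 5′ signal of Gapdh, a sign of RNA quality, was 1.28 ± 0.283 with the control virus, 1.71 ± 0.145 with AdV-IL4 and 1.46 ± 0.11 with AdV-IL4d2 (SD, n = 3). For Actb it was 2.65 ± 0.326, 3.23 ± 0.484 and 2.58 ± 0.226. Within the AdV-IL4 group, mouse 1, 2 and 3 had Gapdh ratios of 1.8, 1.78 and 1.54 and Actb ratios of 3.75, 3.16 and 2.79. Mouse 1, with the highest chaperone average, thus also had the highest ratios of the 9 arrays. Markers of other cells differed in the same arrays. The plasma cell markers had a mean log2 signal of 9.71 to 10.06 with the control virus, 11.13 to 11.5 with AdV-IL4 and 11.16 to 11.76 with AdV-IL4d2, and 4 of 7 rose and 1 fell with AdV-IL4. The macrophage markers stood at 9.41 to 9.9, 10.57 to 10.85 and 9.58 to 10.09 in that order, and 7 of 8 rose and 1 fell with AdV-IL4. The B cell markers stood at 8.49 to 8.68, 9.37 to 9.64 and 9.18 to 9.41, and 7 of 8 rose with AdV-IL4. None of these markers was at 0, and the part of RNA quality and of cell makeup in the chaperone values was not tested.

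The cytokine forms were then set against each other. This comparison uses the AdV-IL4d2 arrays on which Hspa1a and Hspa1b were known to be high when the list was drawn up. Its p-values do not account for that choice. Of the 38 tested genes, 1 passed the test, Hspa1a, and 11 (28.9%) had an unadjusted p below 0.05, as did 2218 of all 11984 genes (18.5%). Among all genes, 1.18% were called higher and 1.05% lower with AdV-IL4 than with AdV-IL4d2. Hspa1a was 1.83-fold higher with AdV-IL4 (0.88 ± 0.17, limma adjusted p = 0.0284), and every AdV-IL4 array was above every AdV-IL4d2 array. Hspa1b differed by 0.73 ± 0.21 (adjusted p = 0.112, 95% interval 0.27 to 1.19), with overlap of the arrays. The next largest differences in this direction were 0.47 for Chordc1 (adjusted p = 0.0688), 0.36 for Bag3 (0.127) and 0.31 for Stip1 (0.277) and Hsph1 (0.371), all of which turned sign under both control scalings (−0.07 to −0.23 and −0.61 to −0.77). The Hspa1a call was lost without AdV-IL4 mouse 1 (0.67, adjusted p = 0.0509), without AdV-IL4d2 mouse 1 (0.82, 0.0999) and without AdV-IL4d2 mouse 3 (0.77, 0.131). The Hspa1a difference was 0.34 under the hybridisation control scaling (adjusted p = 0.159) and −0.20 under the poly-A scaling (0.422), and that of Hspa1b 0.19 and −0.35.

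Of the 83 tested probe sets of these genes, 3 (3.61%) passed the test between the forms, against 416 of all 23824 (1.75%). Besides that of Hspa1a they were 2 probe sets of Hspa8. Probe set 1431182_at gave 6814, 5345 and 4113 with AdV-IL4, 2379, 3174 and 2166 with AdV-IL4d2, and 1261, 1679 and 1617 with the control virus. Probe set 1420623_x_at gave 27985, 27768 and 26144 with AdV-IL4, 21260, 22611 and 20191 with AdV-IL4d2, and 9946, 9664 and 10287 with the control virus. Both showed 3 separate groups, and both passed the test between the forms, at 1.06 ± 0.18 (limma adjusted p = 0.0144) and 0.35 ± 0.08 (limma adjusted p = 0.0429). The brightest Hspa8 probe set, which stands for the gene, showed 0.30 ± 0.10 (adjusted p = 0.147), and 1420622_a_at showed 0.13 ± 0.09 (adjusted p = 0.502). Under the hybridisation and poly-A control scalings the brightest probe set turned to −0.24 and −0.77. These scalings move the median of all probe sets by −0.52 and −1.04 here. Either shift is larger than the 0.35 of 1420623_x_at, and the poly-A shift is close in size to the 1.06 of 1431182_at. Which Hspa8 transcripts each probe set detects was not examined here.

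**Figure D5:**
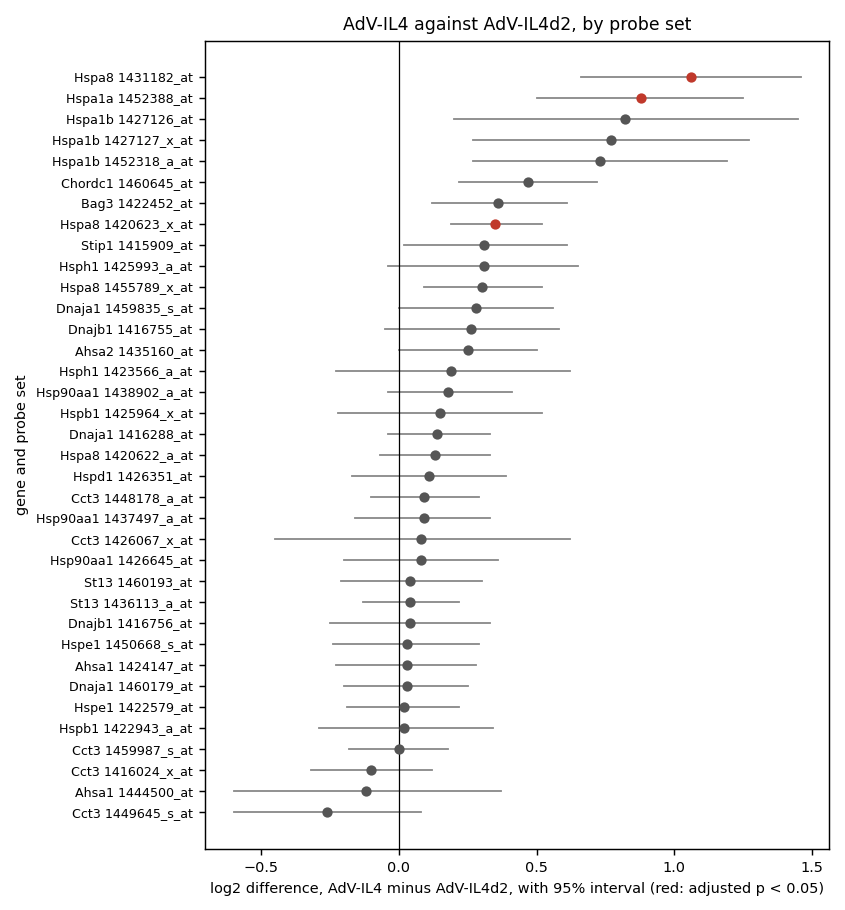
Log2 differences between AdV-IL4 and AdV-IL4d2 (horizontal axis) with 95% intervals, for every tested probe set of the 17 genes that rose with AdV-IL4. The 3 red points passed the test, and most other intervals lie near or across 0. Scaling arrays to hybridisation or poly-A controls moves the median of all probe sets by −0.52 or −1.04 in this comparison and turned the sign of 20 or 22 of the 38 genes.

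Over the 38 tested genes, the AdV-IL4 mean was above the AdV-IL4d2 mean for 22 and the median difference was 0.03. Under the control scalings that order turned for 20 and 22 genes. Several genes had differences near 0 between the forms. The 95% intervals of the AdV-IL4 minus AdV-IL4d2 difference were −0.29 to 0.34 for Hspb1, −0.23 to 0.28 for Ahsa1, −0.24 to 0.29 for Hspe1 and −0.04 to 0.33 for Dnaja1. Genes with a lower AdV-IL4 than AdV-IL4d2 mean included Cct5 (−0.32), Dnaja4 (−0.34) and Fkbp4 (−0.27), none of which passed the test. The other tested probe sets gave 0.19 for Fkbp4, and −0.13 and −0.03 for Dnaja4.

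More than 1 probe set was tested for 25 of the 38 genes. With AdV-IL4 the probe sets of a gene differed in sign for 6 genes and in call for 5, and all of them were called for 9. The 6 genes of mixed sign were Hspa14, Dnajb5, Dnajb6, Hspb8, Cct3 and Hspa9, of which only Cct3 was called. Its 5 probe sets ranged from −0.10 to 0.54, and 3 of them passed the test. The 5 genes of mixed call were Hspa4l, Cryab, Ahsa1, Fkbp4 and Cct3.

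Other gene lists give the setting. These lists were written with earlier results of the same arrays known. Of 46 further chaperones of the cytosol and mitochondria, 4 rose with AdV-IL4 (Cct4, Cct7, Cct8 and Grpel2, by 0.31 to 0.47) and 2 fell, Hspb7 and Pfdn5, at −1.82 and −0.42. With AdV-IL4d2, 0 of the 46 passed the test by limma, and 7 had an unadjusted p below 0.05, as did 15.5% of all genes. Chaperones of the endoplasmic reticulum answer to a separate stress pathway. Of these 19, 12 rose with AdV-IL4 and 5 with AdV-IL4d2, against 6.34% and 0.859% of all genes. The largest were Sdf2l1 (1.14 and 0.75) and Manf (0.98 and 0.74). The collagen chaperone Serpinh1, itself heat-inducible, rose with AdV-IL4 (0.97, limma adjusted p = 6.15e-04), differed by 0.27 with AdV-IL4d2, and differed between the forms (0.70, limma adjusted p = 0.0147).

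Of 4 tested cold-inducible and clock-linked genes, 2 rose and 2 fell with AdV-IL4, by −1.76 to 0.51, and 1 fell with AdV-IL4d2. The largest change was that of Cirbp, a cold-inducible RNA-binding protein whose transcript falls with heat. Cirbp gave 1220, 1288 and 1236 with the control virus, 356, 335 and 377 with AdV-IL4, and 439, 429 and 448 with AdV-IL4d2. All cytokine arrays were below control, with log2 differences of −1.76 ± 0.10 (limma adjusted p = 2.24e-06) with AdV-IL4 and −1.47 ± 0.10 with AdV-IL4d2. Of 12 heat and oxidative stress genes outside the chaperones, 2 rose with AdV-IL4, Gclc and Hmox1 (0.89 and 0.67), and 3 fell, Nqo1 (−0.97), Rgs2 (−0.69) and Sqstm1 (−0.43). Of 10 glucocorticoid-induced genes, 3 rose with AdV-IL4 and 2 with AdV-IL4d2, Cdkn1a (0.99 and 0.79) and Tsc22d3 (0.80 and 0.65) in both. Of 17 immediate early genes, 1 rose with AdV-IL4 (Egr2, 1.03) and 7 fell, among them Nr4a1 (−1.81) and Egr1 (−1.49). With AdV-IL4d2 9 fell, Egr1 by most (−2.95), and 5 were higher with AdV-IL4 than with AdV-IL4d2.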

How the data were processed

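Total RNA (200 ng per lung) was labelled as biotin cRNA and hybridised to Affymetrix 3′ arrays, per the labels' protocols. The deposited values are linear signal intensities, 1 per probe set and array, for which MAS5, GCOS and Expression Console 2.0 are named in the submitters' processing notes, with no role. Gene names came from the platform annotation, using the 34958 probe sets with 1 symbol and none of the 932 with several.

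The scale used was log2(signal + 16). A probe set was kept where it exceeded its array's median on 3 or more of 9 arrays, and 64 control probe sets were left out. All arrays entered 1 model without covariates (limma 3.58.1, R 4.3.3, lmFit and eBayes with trend, 6 residual degrees of freedom), tested on simulated data. P-values are two-sided, adjusted by Benjamini-Hochberg over 23824 probe sets within each of 3 comparisons, with a threshold of 0.05. A gene is represented by its tested probe set with the highest mean log2 signal. Fold changes are on the log2(signal + 16) scale, which understates those of dim probe sets. Errors are SE of the fit for log2 differences and SD for signals or ratios. The number of arrays limits the precision.

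The members, their classes and the other lists were chosen with earlier results of these data known. Values on every array are given for Hspa1a, Hspa1b, Hspa8, Hsp90aa1, every member past the threshold in any comparison and the brightest member of each family, and for other genes the largest called changes of each list. Other single genes were named after their values were seen, as was the search for a pair of units in promoters. Alternatives were quantile normalization, scaling to control transcripts, pseudocount, filter, variance model, the mean over probe sets, leaving out arrays and a block for mouse number.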

Additional observations from a re-analysis of the deposited data

Results flagged for a closer look

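The effects of the cytokine forms differed by the direct test for 3 of 83 probe sets (3.61%), against 1.75% of all 23824. The list was drawn up with Hspa1a and Hspa1b known to be high on the same AdV-IL4d2 arrays. The p-values do not account for that choice. Hspa1a (1452388_at) was higher with AdV-IL4 than with AdV-IL4d2 by 0.88 on the log2 scale (limma adjusted p = 0.0284). Hspa8 was higher by 1.06 on probe set 1431182_at (limma adjusted p = 0.0144) and by 0.35 on 1420623_x_at (limma adjusted p = 0.0429). The hybridisation and poly-A control scalings move the median of all probe sets by −0.52 and −1.04 here, and turned the sign of the brightest Hspa8 probe set. The Hspa1a call was lost with its sign kept in 6 of 21 alternatives. It was also lost under the poly-A scaling, where its sign turned (−0.20, limma adjusted p = 0.422). For each of the 3 probe sets, the 3 AdV-IL4 arrays lay above the 3 AdV-IL4d2 arrays. Groups of 3 arrays are too small for the outlier test, which was not run.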

How the results depend on the processing

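In total 21 alternatives were run. Of the 18 calls with AdV-IL4, 8 were kept in all of them (Ahsa2, Chordc1, Dnaja1, Dnajb1, Hspa1a, Hspa1b, Hsph1 and Stip1). Of the 16 with AdV-IL4d2, 13 were kept (Hspd1 was lost in 11 alternatives, Cct5 in 9 and Fkbp4 in 3), and of the 1 between the forms, 0. Scaling to hybridisation or poly-A controls moved the most values, and why these controls differ was not tested. With AdV-IL4 against control, the median of the heat-inducible genes was 0.39 and 0.04 and of the constitutive genes −0.39 and −0.74, and signs turned for 14 and 17 of the 38 genes, among the called ones for St13 (−0.06 and −0.41) and Cct3 (−0.05 and −0.40), and under poly-A scaling for Bag3 (−0.06) and Hspd1 (−0.08). With AdV-IL4d2, the constitutive median was 0.25 and 0.44, and the heat-inducible median 1.08 under poly-A scaling. Between the forms, 21 and 36 genes were called, all lower with AdV-IL4. Most of this follows the whole array, since 11163 and 22503 of all 23824 probe sets were called there. The median of all probe sets moved by −0.52 and −1.04. The medians were −0.39 and −0.93 (heat-inducible) and −0.67 and −1.20 (constitutive), and Hspa1a was at −0.20 under poly-A scaling.

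The count called between the forms was 0 without the filter and without the trend, and 2 with the mean over probe sets, where the constitutive median was −0.06. Leaving out 1 array gave 0 to 3 calls between the forms (0 without AdV-IL4 mouse 1, AdV-IL4d2 mouse 1 or AdV-IL4d2 mouse 3, and 3 without AdV-IL4 mouse 3), 17 to 18 with AdV-IL4 and 13 to 17 with AdV-IL4d2. The constitutive median then ran from −0.02 to 0.07 with AdV-IL4 and from −0.19 to −0.10 between the forms. Without AdV-NULL mouse 1 and AdV-IL4 mouse 2, which carried the extremes of muscle signal, these were −0.02 and −0.19. With a replicate block for mouse number, 2 genes were called between the forms, 19 with AdV-IL4 and 17 with AdV-IL4d2. Deviations from group means correlated by −0.07 to 0.12 for 9 same-numbered pairs and by −0.13 to 0.13 for 18 others. Between AdV-IL4 and AdV-IL4d2, same-numbered pairs gave 0.07 to 0.12 and the others −0.09 to −0.01. Same-numbered pairs with the control virus ran from −0.07 to 0.08. Such weak correlations cannot settle whether mouse numbers pair the samples, and the main model used no pairing. Cause was not tested for any of these changes, and 3 mice per group limit all of them.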
